A study of Mus musculus with 30 samples.

Results

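Gradient pool 4 is the RNA of the fourth of 4 pools cut from a sucrose gradient of cytoplasmic lysate, compared here between mouse embryonic stem cells and embryoid bodies. Its members are the 6 arrays titled as pool 4, out of 30 arrays in the series. The first group holds 3 undifferentiated cultures of R-1 embryonic stem cells (ESC), grown with LIF, the cytokine that keeps them in that state. The second group holds 3 cultures of embryoid bodies (EB), cell aggregates that the same line forms without LIF, taken at day 5. Both groups were exposed to cycloheximide at 150 ug/ml for 15 min, which stops ribosomes on the mRNA they are reading, and 12 gradient fractions were then joined into 4 pools. Affymetrix mouse arrays were hybridised with RNA of each pool and, in parallel, of unfractionated lysate, from 2.5 ug of input. The labels call the 3 cultures of each state biological replicates, name 1 cell line, and do not state at which end of the gradient the numbering starts, so pool 4 is not called heavy or light.

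A sucrose gradient separates mRNAs by how many ribosomes they carry, because each added ribosome makes the particle sediment faster. The share of a gene's mRNA found in a given pool therefore depends on the length of the coding region and on how often translation starts on it, as well as on how much of the mRNA the cell holds. LIF acts through the receptor subunits Lifr and Il6st and the transcription factor Stat3, and its removal lets embryonic stem cells leave the naive state and pass through a state like the epiblast of the early embryo. Because these are bulk samples of mixed aggregates, fewer cells of a type and less RNA per cell cannot be told apart.

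The deposited values are log2 signals. Judged from the values alone, arrays appear to have been set to the Bacillus spike-in RNAs. The mean log2 value of these was 9.64 in ESC and 9.66 in EB. On that scale the mean signal of the pool 4 arrays was 97.8 ± 14.5 (SD, n = 3) in ESC and 232 ± 19.2 in EB, so that EB arrays were 2.37 times as bright (p = 0.1 in an exact two-sided permutation test, the lowest value that 3 against 3 allows). The brighter EB signal was not particular to pool 4. Total RNA arrays had means of 156, 151 and 155 in ESC and 376, 302 and 357 in EB. Pool 3 arrays had 205, 107 and 161 in ESC and 578, 263 and 341 in EB. In pools 1 and 2 the means of the states overlapped. In pool 4 between 49.66% and 59.07% of probe sets lay at the array's floor in ESC and between 28.05% and 36.12% in EB. RNA quality measures differed with the state: the 3′ minus 5′ log2 difference of Actb was 1.34, 2.02 and 3.54 in the ESC arrays and 0.46, 1.01 and 0.76 in the EB arrays, and that of Gapdh was 0.83, 1.06 and 2.0 against -0.08, -0.15 and -0.15 (p = 0.1 in exact tests of both). The hybridisation controls read 9.60, 9.81 and 10.31 in ESC and 10.69, 10.64 and 11.57 in EB. ESC replicate 3 had the highest 3′ excess and correlated with the other ESC arrays at 0.977 and 0.984 across genes, while the EB arrays correlated among themselves at 0.983 to 0.985; counts without it are given beside the results it touches. The part of the 3′ excess and of the controls in the results below was not tested.

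Of 13250 genes tested, 9990 were called higher in EB than in ESC on the deposited scale (75.4% of genes) and 49 were called lower (0.37%), with a median of all genes of 0.84 (log2). A call means an adjusted p below 0.05 in limma. To ask which mRNAs moved against this common shift, all 6 arrays were given the same distribution by quantile normalization. Values treated so are said to be relative to all genes, which is the scale of every value below unless another is named. On that scale 1812 genes were higher in EB (13.7%) and 2035 were lower (15.4%), with a median of 0.02. The 3 EB values did not overlap the 3 ESC values for any of these 3847 genes, nor for 5901 of all 13250 genes. The largest gains and losses below were picked with no overlap as a condition. Without ESC replicate 3 the counts higher and lower were 1665 and 1760, and on the deposited scale 9425 and 80. Each of the 1812 higher genes was also higher on the deposited scale. Of the 2035 lower genes, 49 were lower there, 716 were not called and 1270 were called higher, so "lower" means for most of them that the mRNA gained less signal in pool 4 than the average gene did. The split depended on the scaling. The share of higher genes among those called was 99.5% on the deposited scale, 47.1% relative to all genes, 36.5% after median centring (median of all genes -0.16) and 60.7% after scaling each array to its mean signal. With the hybridisation controls as the reference, 37 genes were called higher and 14 lower (72.5% higher, median 0.14).

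**Figure D1:**
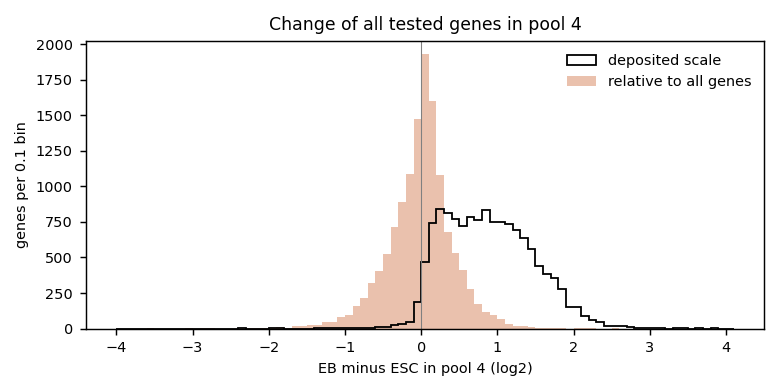
Histogram of the EB minus ESC difference in pool 4 (log2, x axis) over the 13250 genes tested, in bins of 0.1 (genes per bin, y axis). The outline is the deposited scale, centred on a median of 0.84; the filled bars are values relative to all genes, centred on 0.02.

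The 10 mRNAs with the largest gains in EB pool 4 included those of the epiblast factor Otx2, the germ cell proteins Dazl and Tex19.1 and the immediate-early factor Jun. Ndrg1, which responds to hypoxia, stood at 7.41, 7.32 and 7.67 in the ESC arrays and at 10.13, 9.99 and 9.91 in the EB arrays (log2 of signal plus 32). All EB values lay above all ESC values, and the difference was 2.55 ± 0.12 (SE, n = 3 per state, adjusted p = 0.000186) or 5.84-fold. Dazl, an RNA-binding protein that promotes translation in germ cells, stood at 6.47, 6.58 and 6.35 in ESC and at 8.80, 9.14 and 9.02 in EB, a difference of 2.52 ± 0.11. Jun, which pairs with Fos proteins to form AP-1, rose from 6.99, 7.01 and 6.53 to 9.18, 8.95 and 9.06, a difference of 2.22 ± 0.15. Otx2, a homeobox factor that marks the primed epiblast, went from 8.73, 8.52 and 8.89 in ESC to 11.20, 10.46 and 10.86 in EB, a difference of 2.13 ± 0.20 (adjusted p = 0.00104). In none of these 4 genes did the groups overlap. Jun had a second probe set past the filter, which gave 0.50.

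The other 6 of the 10 largest gains were Pdzk1, a scaffold of membrane transporters (2.21), the transcription factor Myb (2.13), Tex19.1, a germline protein that restrains retrotransposons (2.01), the liver-type glycogen phosphorylase Pygl (2.0), the Wnt effector Lef1 (1.81) and Ifi35, an interferon-induced protein (1.80). Other probe sets went down to 1.27 for Myb, 1.31 for Lef1 and 0.41 for Ifi35. Pdzk1 lay at the floor on all 3 ESC arrays, so its gain depends on the offset of 32 and has no exact size; 154 of the 1812 higher genes were at the floor in all 3 ESC arrays in the same way. On the deposited scale the 5 largest gains were Ndrg1 (3.81), Dazl (3.68), Otx2 (3.43), Jun (3.41) and Tex19.1 (3.31). All 10 genes were also called with the hybridisation controls as the reference.

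The largest loss was that of Socs3, the feedback inhibitor that LIF-STAT3 signalling induces. Its level was 10.93, 10.70 and 10.83 in the ESC arrays and 7.26, 7.35 and 7.05 in the EB arrays, a difference of -3.60 ± 0.11 (adjusted p = 0.000117), 12.1-fold lower in EB. Gbx2, a homeobox factor downstream of Stat3, fell from 8.81, 8.59 and 8.38 to 5.77, 5.73 and 5.64, a difference of -2.88 ± 0.12. Klf4, a naive pluripotency factor that Stat3 activates, stood at 10.98, 10.97 and 10.57 in ESC and at 8.91, 8.22 and 8.30 in EB, a difference of -2.36 ± 0.21. The 3 EB values lay below the 3 ESC values for each gene. Bcl3, a cofactor of NF-kB and another Stat3 target, fell by 2.23 on the log2 scale, from 7.98, 8.12 and 8.11 to 5.89, 5.81 and 5.82. Beside these, Inhbb, the beta B subunit of activin (-3.03), the scaffold gene Ahnak (-2.71), the GTPase gene Mras (-2.25), the imprinted growth regulator Phlda2 (-2.21), the ligand gene Bmp4 (-2.21) and Pcolce, which aids collagen processing (-2.17), completed the 10 largest losses. Another probe set gave -0.68 for Inhbb and -1.08 for Mras. On the deposited scale Socs3 (-2.35), Gbx2 (-1.95), Inhbb (-1.92), Ahnak (-1.90) and Mras (-1.34) were the 5 lowest. With the hybridisation controls as the reference, 9 of the 10 were still called, Klf4 being the exception.

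**Figure D2:**
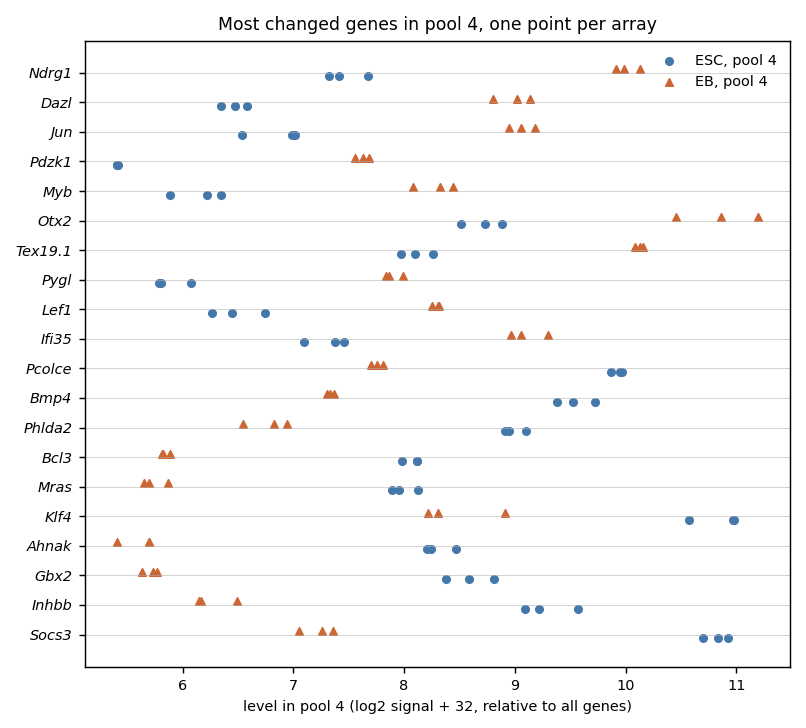
Level of the 10 genes with the largest gains and the 10 with the largest losses in pool 4 (log2 of signal plus 32, relative to all genes, x axis), 1 point per array. In every gene the 3 EB triangles lie on one side of the 3 ESC circles, which was a condition of the choice. Socs3 runs from 10.70 to 10.93 in ESC and from 7.05 to 7.35 in EB.

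The LIF-STAT3 list as a whole had 13 tested genes, of which 9 were lower, 1 was higher and 3 were not called. Over all genes 15.4% were lower and 13.7% higher. After median centring 7 were lower and 2 higher (53.8% and 15.4%, against 37.9% and 21.8% of all genes). The list median was -0.65, against 0.02 for all genes. The median had the same sign under every scaling tried except the deposited one, where it was 0.59, below the 0.84 of all genes. The receptor subunits Lifr and Il6st lay at -0.65 and -0.49, both called lower, while the kinase gene Jak1 was higher by 0.77. Stat3 itself was at -0.22 and was not called. Among the targets, the Klf4 relative Klf5 fell by 1.23 on the log2 scale (with other probe sets up to -0.14) and Tfcp2l1, a naive pluripotency factor, by 0.43.

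The pluripotency markers split. Of 30 genes tested, 10 were higher, 9 were lower and 11 were not called, and the median was 0.07 (-0.03 after scaling to the mean signal). Over all genes 13.7% were higher and 15.4% lower. After median centring 12 markers were higher and 7 lower (40% and 23.3%, against 21.8% and 37.9% of all genes). Nanog, a core factor of the network, stood at 10.54, 10.63 and 10.31 in ESC pool 4 and at 11.46, 11.45 and 11.57 in EB pool 4, a difference of 1.0 ± 0.10 (adjusted p = 0.00138) with no overlap. Sox2 was higher by 0.34 ± 0.10 (adjusted p = 0.0439), from 11.72, 11.92 and 12.01 to 12.20, 12.29 and 12.16, but this call was lost with any array left out except ESC replicate 3, with adjusted p of 0.0765 without EB replicate 3, 0.0831 without EB replicate 1, 0.096 without ESC replicate 2, 0.11 without ESC replicate 1 and 0.122 without EB replicate 2. Pou5f1, which encodes Oct4, was at 11.47, 11.14 and 10.89 in ESC and at 10.86, 10.51 and 10.82 in EB. Its difference of -0.43 ± 0.17 was not called (adjusted p = 0.107), and it was called without ESC replicate 3 (-0.56, adjusted p = 0.0451); on the deposited scale it was 0.86. Dppa3, a marker of naive cells and germ cells, rose by 1.72, the Nodal antagonist gene Lefty2 by 1.24, the regulator Prdm14 by 1.05 and Fbxo15 by 1.04. The losses were led by Klf4 and Klf5, given above, and went on with the small GTPase gene Eras (-0.88) and the TGF-beta family ligand gene Gdf3 (-0.87). Taken as summed deposited signal, the 30 markers ran from 22445 to 31155 in the ESC arrays and from 58425 to 71426 in the EB arrays, so both labelled states carried them.

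Markers of the primed epiblast were higher or not called. Of 12 tested, 6 rose and 0 fell in limma, against 13.7% and 15.4% of all genes. Their median was 0.27 and was positive under every scaling. Their summed signal ran from 1235 to 1596 in ESC and from 7710.5 to 9393 in EB. After Otx2 and Lef1, the de novo DNA methyltransferase gene Dnmt3b was higher by 1.09 ± 0.15 (adjusted p = 0.00297), from 9.58, 9.96 and 9.91 to 10.69, 11.05 and 11.00, the transcription factor gene Zic2 by 1.02, Dnmt3a by 0.85 and the POU factor gene Pou3f1 by 0.44. Another probe set of Pou3f1 gave -0.07. After median centring 7 members were called higher and 2 lower (58.3% and 16.7%, against 21.8% and 37.9% of all genes). Relative to all genes no member fell at an unadjusted p of 0.05 either.

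Markers of later cell types moved in both directions, and their counts depended on the scaling: after median centring, which called 21.8% of all genes higher and 37.9% lower, 1 primitive streak and mesoderm marker was higher and 6 lower, 2 endoderm markers were higher and 15 lower, 1 neural marker was higher and 7 lower, and 0 heart, vessel and blood markers were higher in limma and 10 lower. Of the 15 primitive streak and mesoderm markers 8 were tested, 4 of them at the floor in all 3 ESC arrays, and 1, the homeobox gene Msx1, was called higher (0.42; 2 members were higher without ESC replicate 3); it lay at -0.26 and uncalled after median centring. Of 23 endoderm markers 6 were higher and 6 lower, against 13.7% and 15.4% of all genes. The count higher was 3 without ESC replicate 1 or 2 or EB replicate 3. The adaptor gene Dab2 stood at 5.91, 5.84 and 6.08 in ESC and at 7.15, 7.0 and 7.04 in EB, higher by 1.12, and the GATA factor gene Gata6 was higher by 0.78 (0.29 and uncalled after median centring), while the basement membrane genes Lamc1 and Nid1 lay at -1.03 and -0.78. Other probe sets gave 0.15 for Dab2, 0.39 for Gata6, -0.31 for Lamc1 and 0.18 for Nid1. Of 9 neural markers 3 were lower and 1 higher: Sox1, a marker of early neural tissue, reached 5.99, 5.99 and 6.21 in ESC and was at the floor in all 3 EB arrays. The higher one, the tubulin gene Tubb3 (0.35), was not called without ESC replicate 1 or 2 or EB replicate 1 or 3 (adjusted p = 0.0867, 0.0794, 0.0704 and 0.0766). Of 11 heart, vessel and blood markers, Gata1 was called higher (0.32) and Tal1 lower (-0.36), and both calls were lost with arrays left out. For Gata1 this held for each of the 6 arrays, with adjusted p from 0.0581 without EB replicate 2 to 0.104 without EB replicate 3, and after median centring it was at -0.43 (adjusted p = 0.0306); Tal1 reached 0.0539, 0.0596, 0.0685 and 0.0559 without ESC replicates 1 and 2 and EB replicates 1 and 2. Of 15 fibroblast markers, which a feeder layer would carry, 7 were tested and 3 were lower in EB: the filament gene Vim (-1.98), Thy1 (-0.78) and Fn1 (-0.64), with another Fn1 probe set at 0.49. Summed deposited signal of these 7 was 988 to 1234 in ESC and 1212 to 1275 in EB, and their part in the results was not tested.

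Genes of Nodal, BMP, FGF and Wnt signalling moved in both directions, as did all genes (13.7% higher and 15.4% lower, or 21.8% and 37.9% after median centring). Of 34 tested, 7 were higher and 10 lower, with a median of 0.04; without EB replicate 2 the counts were 4 and 6, after median centring 13 and 9, and with arrays scaled to their mean signal 13 and 8. The ligand genes Inhbb and Bmp4 were among the largest losses of all. Bmp4, which signals through Smad proteins, stood at 9.39, 9.53 and 9.72 in ESC and at 7.31, 7.33 and 7.36 in EB. Spry4, an inhibitor that FGF signalling induces, fell by 1.76 on the log2 scale, and Lef1 rose. Other probe sets of Spry4 went up to -0.75. The directions were the same on the deposited scale, where Bmp4 was at -0.96, Spry4 at -0.59 and Lef1 at 2.97.

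**Figure D3:**
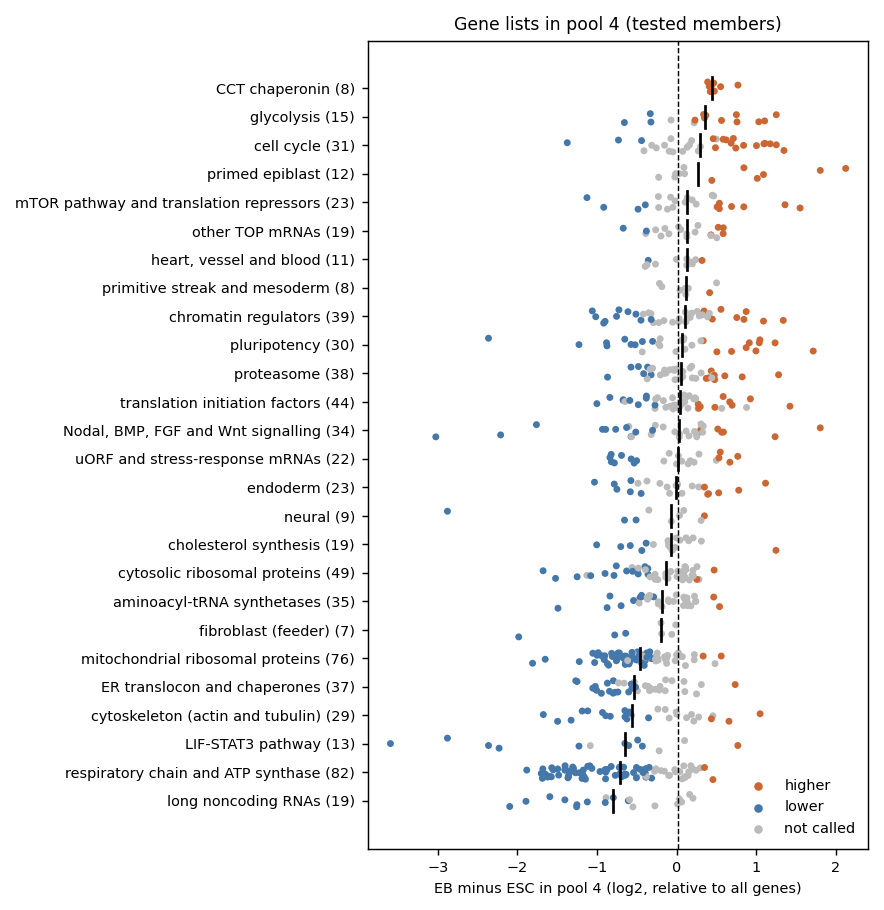
EB minus ESC difference in pool 4 (log2, relative to all genes, x axis) of each tested member of 26 gene lists (rows, number tested in brackets), with the list median as a black bar and the median of all genes, 0.02, as a dashed line. Blue points lie mostly to the left in the respiratory chain (median -0.72), long noncoding RNA (-0.79) and endoplasmic reticulum (-0.53) lists, and all 8 CCT chaperonin genes are orange.

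Gas5, Snhg1, Snhg3, Snhg8 and Snhg12, long noncoding RNAs that host small nucleolar RNAs, were lower in EB pool 4 relative to all genes, while the hosts Snhg5 (-0.27) and Snhg6 (-0.89) were not called. The 5′ ends of 4 of them are shown, chosen because they have the feature, since such hosts, like ribosomal protein mRNAs, often start with a run of pyrimidines (a 5′ terminal oligopyrimidine, or TOP, tract), by which mTOR signalling controls translation. The windows run from 10 bases before to 20 bases after the annotated RefSeq start on GRCm38.p6, 5′ to 3′ along the gene, with each run of at least 5 C or T that reaches within 4 bases of the start in capitals. They lie at chr1:161035156-161035185 (plus strand), chr4:132353667-132353696 (minus), chr3:123508317-123508346 (minus), chr4:132308668-132308697 (plus) and, for the ribosomal protein gene Rpl12, chr2:32961702-32961731 (plus).
Gas5: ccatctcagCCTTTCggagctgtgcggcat
Snhg3: gaccacgcctgaCTTCCgggcgttacttaa
Snhg8: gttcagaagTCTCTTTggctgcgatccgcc
Snhg12: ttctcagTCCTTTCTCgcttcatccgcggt
Rpl12: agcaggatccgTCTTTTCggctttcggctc

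Snhg8 stood at 9.66, 10.21 and 10.17 in the ESC arrays and at 7.59, 8.32 and 7.85 in the EB arrays, a difference of -2.10 ± 0.23 (adjusted p = 0.00154), 4.28-fold lower. It kept its call under every alternative tried, the hybridisation controls included, and was at -0.80 on the deposited scale. Snhg3 was at 10.73, 10.40 and 9.51 in ESC and at 8.52, 7.80 and 8.64 in EB, a difference of -1.89 ± 0.36 (adjusted p = 0.00997), which was -1.63 and uncalled without EB replicate 2 (adjusted p = 0.0539). Gas5, a host RNA that accumulates when growth stops, went from 11.18, 11.50 and 11.56 to 9.88, 10.51 and 10.09, and Snhg12 lay at -0.90. In these 4 RNAs every EB value was below every ESC value. Xist, the RNA that coats the inactive X chromosome, lay at -1.59 and the imprinted Meg3 at -1.40, although 3 of 10 Meg3 probe sets had the opposite sign. Over the list of 19 long noncoding RNAs, 10 were lower and 0 higher in limma (11 and 0 at an unadjusted p of 0.05). Over all genes 15.4% were lower. The list median was -0.79 and was negative under all scalings except the deposited one (0.26). The list does not stand for its class. Of all 474 long noncoding RNAs tested, 47 were lower and 10 higher, with a median of 0.03.

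A start was counted as TOP-like where a C within 4 bases of the annotated start opened at least 5 consecutive C or T on the gene's strand. This held for 14.1% of the 32851 promoters in the table (16.4% of genes). It held for 6 of the 17 long noncoding RNAs with a promoter there, of which 4 were lower (median -1.08), against 5 lower of 11 without it (median -0.59), Snhg1 (-1.12, lower) and Snhg5 among the latter. Gas5 had it at 1 of its 2 annotated starts. Among cytosolic ribosomal protein genes 20 of 43 had it, of which 8 were lower (median -0.30), against 6 of 23 without it (median -0.09). Annotated starts are not measured cap sites, and a match describes letters only.

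Of the 49 cytosolic ribosomal protein genes tested, 14 were lower, 2 were higher and 33 were not called, with a median of -0.13; without ESC replicate 2 there were 9 lower and 1 higher, without ESC replicate 3 there were 10 and 1, and 1 was also higher without ESC replicate 1 or EB replicate 1 or 3. Over all genes 15.4% were lower and 13.7% higher. The list median was negative under all scalings but the deposited one, where it was 0.85, against 0.84 for all genes. After median centring it was -0.15, against -0.16 for all genes, and 28.6% were lower, against 37.9% of all genes. With arrays scaled to their mean signal 23 were lower (46.9%, against 12.5% of all genes). Rps25, a protein of the small subunit, went from 8.65, 9.30 and 8.95 in ESC to 7.24, 7.57 and 7.05 in EB, a difference of -1.68 ± 0.20 (adjusted p = 0.00215). Rpl39l, a paralog of the large-subunit gene Rpl39, lay at -1.52, and Rpl12, whose start is shown above, lay at -1.25 ± 0.09 with levels of 8.08, 8.12 and 7.96 against 6.70, 6.89 and 6.82. Ribosomal protein genes have many near-identical pseudogene copies, so probe sets can read more than the named gene. The other TOP mRNAs, which encode elongation and initiation factors and proteins such as the nucleolar Npm1 and the importin Ipo7, had 4 higher (1 without EB replicate 3) and 2 lower of 19, among them the elongation factor gene Eef2 at 0.59 (adjusted p = 0.0552 without EB replicate 3) and Eif3k at -0.67; Npm1 was at 0.43 and Ipo7 at 0.52, with other Ipo7 probe sets down to -0.19. After median centring 8 were higher and 1 lower.

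Most nuclear genes for mitochondrial respiration were lower. Of 82 genes of the respiratory chain and ATP synthase, 59 were lower, 2 were higher and 21 were not called, against 15.4% and 13.7% of all genes, with a median of -0.72. Without ESC replicate 3 the count lower was 53. After median centring 50 were lower and 7 higher (61% and 8.54%, against 37.9% and 21.8% of all genes). Uqcr11, a small subunit of complex III, stood at 9.74, 9.82 and 9.56 in the ESC arrays and at 7.51, 8.09 and 7.87 in the EB arrays, a difference of -1.88 ± 0.16 (adjusted p = 0.000816), 3.69-fold lower. Cox6c of complex IV lay at -1.70, Atp5l of the ATP synthase at -1.69 and Ndufa5 of complex I at -1.68. In Ndufa5 the ESC arrays read 9.72, 10.07 and 10.05 and the EB arrays 8.20, 8.45 and 8.15, with no overlap. The higher genes were Atp5b, the catalytic beta subunit of the ATP synthase (0.46), and Cox7b2 (0.35). On the deposited scale the direction of the list turned, with 43 higher and 4 lower and a median of 0.46, below the 0.84 of all genes; under the other 4 scalings the median was between -0.50 and -0.72. With the hybridisation controls as the reference 0 of the 82 were called lower by limma, and 31 were lower at an unadjusted p of 0.05.

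Of 76 mitochondrial ribosomal protein genes, 44 were lower and 2 higher, against 15.4% and 13.7% of all genes. The median was -0.45 (0.84 on the deposited scale, equal to that of all genes). After median centring 24 were lower and 8 higher (31.6% and 10.5%, against 37.9% and 21.8% of all genes). The median was then -0.17, against -0.16 for all genes, so no excess of losses remained there. With arrays scaled to their mean signal 34 were lower (44.7%, against 12.5% of all genes). Mrpl52 of the large mitochondrial subunit stood at 10.70, 10.67 and 10.60 in ESC and at 8.76, 8.82 and 8.95 in EB, a difference of -1.81 ± 0.08 (adjusted p = 0.000186). The values of each state lay close together, and the groups did not overlap. Mrpl11 lay at -1.65 and Mrps14 of the small subunit at -1.22, with other probe sets of the same sign up to -0.01 and -0.16.

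The endoplasmic reticulum list holds the translocon, which threads new secretory proteins through the membrane, and the chaperones that fold them inside. Of 37 genes tested, 17 were lower and 1, the signal recognition particle gene Srp68 (0.74), was higher, against 15.4% and 13.7% of all genes. The median was -0.53 (0.78 on the deposited scale, below all genes) and was negative under the other scalings. After median centring it was -0.23, against -0.16 for all genes. The share lower was then 37.8%, against 37.9% of all genes, so no excess of losses remained there. With the hybridisation controls as the reference 0 were called lower by limma, and 2 were lower at an unadjusted p of 0.05. Hspa5 and Hsp90b1, the main luminal chaperones, are classical targets of the unfolded protein response through the ER stress response element, spelled CCAAT, then any 9 bases, then CCACG, which lies in both promoters. The windows run from 150 to 31 bases before the start, from RefSeq on GRCm38.p6, and lie at chr2:34771940-34772059 (plus strand) for Hspa5 and chr10:86705475-86705594 (minus strand) for Hsp90b1, with the element in capitals, on the reverse strand in Hsp90b1.
Hspa5: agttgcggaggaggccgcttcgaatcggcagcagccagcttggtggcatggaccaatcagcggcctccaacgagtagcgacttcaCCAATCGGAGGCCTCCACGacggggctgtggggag
Hsp90b1: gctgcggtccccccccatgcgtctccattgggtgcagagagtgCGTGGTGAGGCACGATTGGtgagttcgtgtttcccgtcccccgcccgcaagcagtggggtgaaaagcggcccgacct

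Searched on both strands over the 250 bases before each start, the element was found in 37 of 32851 promoters (0.113%) and in 6 of the 31 genes of the list with a promoter, namely Calr, Canx, Dnajc3, Hsp90b1, Hspa5 and Pdia6. Of those 6, 3 were lower, and of the 25 without it 11 were lower. Hspa5 stood at 11.33, 11.37 and 11.24 in ESC pool 4 and at 10.33, 10.28 and 10.26 in EB pool 4, a difference of -1.02 ± 0.07 (adjusted p = 0.000565), 2.03-fold lower; its other probe sets gave values up to -0.13. Hsp90b1 was at 10.54, 10.58 and 10.61 against 9.33, 9.52 and 9.13, a difference of -1.25 ± 0.11. No EB value reached an ESC value in either gene. The translocon subunit gene Sec61b lay at -1.27, Srp19 of the signal recognition particle at -1.05 and Rpn1, a subunit of the enzyme that attaches sugar chains to nascent proteins, at -1.02.

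The CCT chaperonin, a ring that folds actin and tubulin, moved together. All 8 subunit genes were higher, between 0.39 and 0.77, with a median of 0.45. Over all genes 13.7% were higher. Cct8 stood at 10.85, 10.93 and 11.07 in ESC and at 11.77, 11.77 and 11.63 in EB, higher by 0.77 ± 0.09 (adjusted p = 0.00196), and Tcp1 was higher by 0.55. Without ESC replicate 3, 6 of the 8 were called. After median centring all 8 were called higher, against 21.8% of all genes. With arrays scaled to their mean signal 2 were, a share of 25% that lay near the 19.4% of all genes. Of 29 cytoskeleton genes 15 were lower and 3 higher, against 15.4% and 13.7% of all genes. The cytoskeleton median was -0.56 (0.68 on the deposited scale). After median centring 14 were lower and 7 higher (48.3% and 24.1%, against 37.9% and 21.8% of all genes). Tmsb4x, which binds actin monomers, fell by 1.67 on the log2 scale, the linker gene Dst by 1.5, the linker gene Plec by 1.33 and the myosin gene Myh10 by 1.19. Other probe sets gave differences up to -0.40 for Dst and -0.68 for Plec. Actb itself was at 12.95, 12.85 and 12.02 in ESC and at 13.29, 12.69 and 13.21 in EB, with overlapping groups and no call (0.46, adjusted p = 0.278); its probe sets differed in sign.

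Of 31 cell cycle genes, 14 were higher, 3 were lower and 14 were not called, with a median of 0.30. Over all genes 13.7% were higher and 15.4% lower. After median centring 61.3% of the list were higher, against 21.8% of all genes. With arrays scaled to their mean signal 48.4% were, against 19.4% of all genes. The spindle checkpoint kinase gene Bub1 went from 8.80, 9.07 and 8.98 to 10.27, 10.43 and 10.19, a difference of 1.35 ± 0.10 (adjusted p = 0.000698). The mitotic kinase gene Aurkb went from 8.17, 8.17 and 8.10 to 9.33, 9.44 and 9.44, a difference of 1.25 ± 0.07, and its relative Aurka was higher by 1.18. Another Bub1 probe set gave 0.42. Mki67, the proliferation marker, moved against them, from 9.09, 9.32 and 9.30 down to 7.93, 7.88 and 7.78, a difference of -1.37 ± 0.09. None of the 4 genes overlapped between states. Glycolysis genes were also mostly higher, 10 of 15 with 3 lower and a median of 0.35, led by the phosphofructokinase genes Pfkl (1.25) and Pfkm (1.11) and the regulator gene Pfkfb3 (1.03). That count fell to 5 without ESC replicate 2 or 3 and to 6 without EB replicate 1 or 3, and the count lower fell to 1 without ESC replicate 1, 2 or 3 or EB replicate 2 or 3; the 3 named genes kept their calls with any array left out. Other probe sets went down to 0.04 for Pfkl and 0.27 for Pfkfb3. After median centring 73.3% of the glycolysis genes were higher, against 21.8% of all genes. With arrays scaled to their mean signal 53.3% were, against 19.4% of all genes.

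Regulators of translation were called in both directions. Over all genes 13.7% were higher and 15.4% lower. The shares were 21.8% and 37.9% after median centring, and 19.4% and 12.5% with arrays scaled to their mean signal. The lists were not tested against these shares. In the mTOR list 7 of 23 were higher and 4 lower, or 11 and 3 with arrays scaled to their mean signal. Deptor and Ddit4, both inhibitors of mTOR, were higher: Deptor went from 7.52, 7.23 and 6.52 to 8.90, 8.40 and 8.62 (1.55 ± 0.27, adjusted p = 0.00721) and Ddit4 from 8.86, 9.13 and 9.08 to 10.54, 10.20 and 10.43 (1.36 ± 0.12). The 4E-binding proteins, which block cap-dependent initiation, were lower, Eif4ebp2 by 1.13 and Eif4ebp1 by 0.92 on the log2 scale, with another Eif4ebp1 probe set at 0.24 and Eif4ebp2 probe sets up to -0.22; Deptor probe sets went down to 0.35. Initiation factor genes had 9 higher and 9 lower of 44 (19 and 4 after median centring), with the Y-linked Eif2s3y at 1.43, Eif2b3 at 0.93 and the cap-binding repressor gene Eif4e2 at -1.0; 5 were higher without ESC replicate 2 or EB replicate 3. Eif4e2 had a probe set of the opposite sign.

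The counts of the next 5 lists stand beside 13.7% of all genes higher and 15.4% lower, or 21.8% and 37.9% after median centring. They were not tested against these shares. Of 35 aminoacyl-tRNA synthetase genes 9 were lower and 2 higher, with a median of -0.18 that turned to 0.13 on the hybridisation controls and 0.91 on the deposited scale. After median centring 6 were higher and 7 lower. The count lower was 5 without ESC replicate 2 or EB replicate 1 or 3, and the count higher 1 without ESC replicate 1, 2 or 3 or EB replicate 1. Mars1, the methionine enzyme, went from 11.05, 10.94 and 10.86 to 9.47, 9.32 and 9.58, a difference of -1.49 ± 0.10 (adjusted p = 0.000508). Among mRNAs with upstream reading frames or a stress response, 8 of 22 were lower and 4 higher (7 and 8 after median centring), with Bag1 (-0.82), the stress factor gene Atf5 (-0.82) and Myc (-0.78) lowest among those that kept their calls; without EB replicate 2 there was 1 higher, without EB replicate 3 there were 2, and without EB replicate 1 there were 5 lower. Proteasome genes had 8 higher and 6 lower of 38 (18 and 1 after median centring), with 4 higher without ESC replicate 2 or EB replicate 3, 5 without ESC replicate 1, and 3 lower without ESC replicate 1 or 2 or EB replicate 2. Psmb8, a subunit of the immunoproteasome, was higher by 1.28 ± 0.10, with 2 of its 3 ESC values at the floor. Chromatin regulators had 9 higher and 10 lower of 39 (18 and 7 after median centring), with Dnmt3b the highest of those that kept their calls and the methyltransferase genes Kmt2a (-1.06) and Kmt2d (-1.02) lowest; 5 were higher without ESC replicate 2 or EB replicate 2 and 3 without EB replicate 3. A second Kmt2d probe set had the opposite sign. Of 19 cholesterol synthesis genes 5 were lower and 1, Fdps, was higher (1.25), against 4 and 4 after median centring; the count lower was 2 without ESC replicate 1, EB replicate 1 or EB replicate 2 and 3 without any other array, while the count higher was 2 without EB replicate 3.

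To ask whether pool 4 moved differently from the mRNA pool it was drawn from, the pool 4 minus total RNA difference of each culture was compared between states. Of 13250 genes 232 were called (1.75%), 74 of them higher (0.558%) and 158 lower (1.19%), and at an unadjusted p of 0.05 the counts were 1330 and 1631. These calls were fragile: with any of the 6 cultures left out 0 genes passed in limma (969 to 1366 higher and 1187 to 1522 lower at an unadjusted p of 0.05), the smallest adjusted p being 0.0634 without ESC replicate 3, 0.0691 without EB replicate 2, 0.0954 without ESC replicate 2, 0.0962 without ESC replicate 1, 0.1 without EB replicate 1 and 0.119 without EB replicate 3. They also shared their pool 4 arrays with the comparison above. In total RNA alone 865 genes were higher (6.53%) and 771 lower (5.82%) in EB. The genes with the largest differences in pool 4 are set beside their total RNA values as follows. Socs3 was at -3.60 in pool 4 and -4.0 in total RNA, Gbx2 at -2.88 and -2.63, Dazl at 2.52 and 2.87, and Ndrg1 at 2.55 and 2.19. The difference between the RNAs was not called for any of the 4, with adjusted p of 0.436, 0.422, 0.356 and 0.242.

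**Figure D4:**
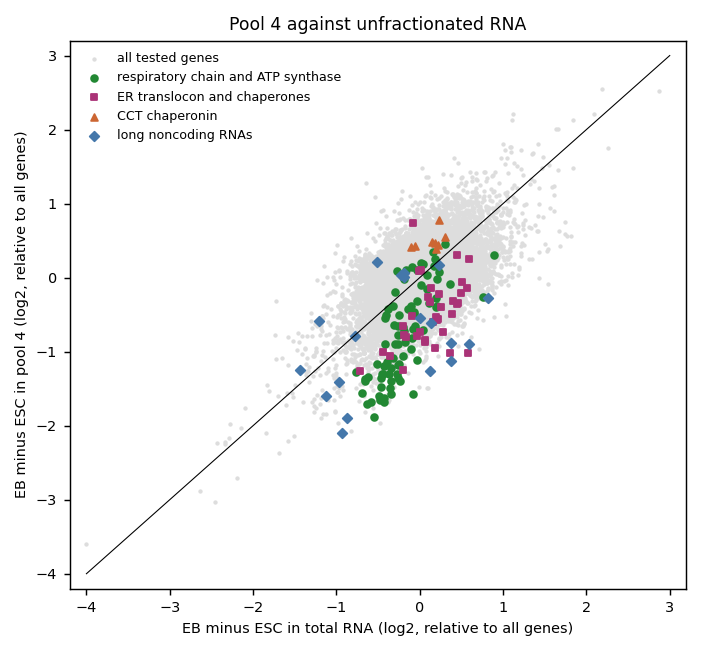
EB minus ESC difference of each tested gene in total RNA (log2, x axis) and in pool 4 (log2, y axis), both relative to all genes, with the line of equal change; both axes use separate arrays of the same cultures. Below the line lie 71 of the 82 green respiratory chain points and 34 of the 37 purple endoplasmic reticulum points, and all 8 orange CCT points lie above it.

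Of 37 endoplasmic reticulum genes, 7 had a lower EB minus ESC difference in pool 4 than in total RNA by limma and 0 had a higher one (27 and 1 at an unadjusted p of 0.05); as for all genes, none of these calls held with any culture left out. Hspa5 in pool 4 minus total RNA was 0.46, 0.52 and 0.23 in the ESC cultures and -1.17, -1.14 and -1.31 in the EB cultures, a difference of -1.61 (adjusted p = 0.0257). Its total RNA was 0.57 higher in EB while its pool 4 level was lower, so the fitted differences had opposite signs. Rpn1 gave 0.58, 0.56 and 0.49 in ESC and -0.88, -0.83 and -0.89 in EB (-1.41, adjusted p = 0.0257), and Hsp90b1 gave -0.08, 0.18 and -0.07 against -1.08, -1.09 and -1.11 (-1.11, adjusted p = 0.0287). In all of them the EB cultures lay below the ESC cultures. The other genes called lower were Calr, Rpn2, Sec61a1 and Srprb. The list's median was 0.16 in total RNA and -0.53 in pool 4.

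Respiratory chain genes had 19 of 82 lower and 0 higher in the same comparison by limma (54 and 1 at an unadjusted p of 0.05), with medians of -0.25 in total RNA and -0.72 in pool 4. Uqcr11 gave -0.50, -0.43 and -0.74 in ESC and -2.23, -1.59 and -1.95 in EB, a difference of -1.37 (adjusted p = 0.0313), and Ndufa5 differed by -1.29. Mitochondrial ribosomal protein genes had 3 of 76 lower, among them Mrpl52 with -0.27, -0.39 and -0.36 against -1.68, -1.51 and -1.56 (-1.25, adjusted p = 0.0257). Of the 19 long noncoding RNAs 4 were lower, all of them hosts of small nucleolar RNAs: Snhg1 (-1.51), Snhg12 (-1.5), Gas5 (-1.45) and Snhg5 (-1.07). Gas5 gave -0.32, -0.02 and -0.06 in ESC and -1.81, -1.09 and -1.85 in EB. The remaining lowest genes of the comparison were 1110038B12Rik (-1.68), Erdr1 (-1.67), the zinc exporter gene Slc30a1 (-1.62) and Dst (-1.59). Erdr1 was at -1.49 in pool 4, with another probe set at -0.26.

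The highest was Psmb8, with pool 4 minus total RNA of -0.28, 0.01 and -1.26 in ESC and 1.65, 1.37 and 1.27 in EB, a difference of 1.93 (adjusted p = 0.0356). It was 0.65 lower in EB total RNA but higher in pool 4, with the caution of its floor values in ESC. Another immunoproteasome subunit gene, Psmb10, gave 0.02, -0.24 and -0.21 against 0.98, 1.13 and 1.16 (1.23, adjusted p = 0.0277), and 3 of 38 proteasome genes were called higher, the third being Psmd12 (0.78). Dnmt3b gave -0.49, 0.09 and 0.15 in ESC and 1.34, 1.45 and 1.95 in EB, a difference of 1.67 (adjusted p = 0.028), and Pou3f1 gave -0.29, 0.29 and 0.23 against 1.31, 1.27 and 1.93 (1.43, adjusted p = 0.0391). Both epiblast genes were lower in EB total RNA, at -0.54 and -0.99, and higher in pool 4, where another Pou3f1 probe set gave -0.07. The clathrin adaptor gene Ap1m2 (1.46) and the microtubule-binding Eml2 (1.39) completed the 5 highest. Among cell cycle genes Cdc20 (1.18) and Aurkb (1.14) were higher and Mki67 (-0.90) lower.

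**Figure D5:**
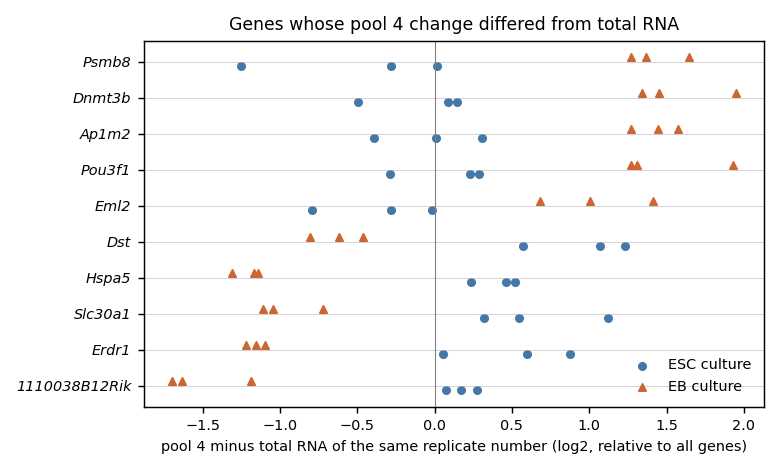
Pool 4 minus total RNA (log2, relative to all genes, x axis) of the same replicate number for the 5 genes with the highest and the 5 with the lowest EB minus ESC difference of that quantity, 1 point per culture. EB triangles lie to the right of the ESC circles in the upper 5 genes and to the left in the lower 5, a condition of the choice. Hspa5 runs from -1.31 to -1.14 in EB and from 0.23 to 0.52 in ESC.

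Pool 3, the neighbouring pool, was compared in the same way. The change in pool 4 was higher than that in pool 3 for 735 genes (5.55%) and lower for 671 (5.06%); without ESC replicate 3 the counts were 487 and 343, and with any other culture left out 0 genes passed in limma (1579 to 1856 higher and 1454 to 1659 lower at an unadjusted p of 0.05, smallest adjusted p from 0.054 without EB replicate 2 to 0.0709 without EB replicate 3). Respiratory chain genes had 46 of 82 lower and 2 higher, mitochondrial ribosomal protein genes 25 of 76 lower and 1 higher, and endoplasmic reticulum genes 18 of 37 lower and 1 higher. CCT genes had 6 of 8 higher, and cell cycle genes, aminoacyl-tRNA synthetase genes and chromatin regulators each had 11 higher and 0 lower in limma, with 1, 0 and 0 lower at an unadjusted p of 0.05. Socs3, Gbx2 and Otx2, with differences of -0.23, -0.05 and 0.01 between the pools, were not called.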

How the data were processed

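The authors deposited log2 signals for 45101 probe sets on 30 arrays. The submitters' processing notes name MAS5 and affy without version or role. From the values, arrays appear to have been set to 24 spike-in probe sets, and pool arrays have a floor shared by replicate number. The step at which spike-ins were added is not given in the sources used here. Of 45037 non-control probe sets, 34945 have 1 symbol, 932 several and 9160 none.

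Deposited log2 values were made linear, raised by 32 and logged again; fold changes of low genes are thus understated. A filter removed the dimmest 40% of probe sets, and the brightest remaining set stood for each of 13250 genes. Values relative to all genes were quantile normalized over the arrays of a fit. Each difference between states came from lmFit and eBayes of limma 3.58.1 (R 4.3.3). Tests were two-sided, with p-values adjusted over all genes after Benjamini-Hochberg and a threshold of 0.05; scripts were tested on simulated data. Array measures were compared with exact permutation tests. The number of arrays, 3 per state, limits the precision. Same-numbered cultures deviated together at r = 0.316, 0.00677 and 0.0316 on the deposited scale, and the main fits did not pair them. These values cannot settle whether the numbers pair the cultures, as ESC and EB pool arrays of the same number share a floor. Promoters came from RefSeq (GRCm38.p6).

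The members and lists were chosen with earlier results of these data known. Named genes are the 10 highest and 10 lowest non-overlapping calls relative to all genes, 5 and 5 on the deposited scale and against total RNA, the 4 most changed called members of each list, and Pou5f1, Sox2, Nanog, Actb and Gapdh (no probe set of which was tested); other members were named after their values were seen. Alternatives were another offset, filters, all probe sets, scalings, fits, a replicate block and leaving out arrays. A planned split by protein length was not run, as protein lengths were not used here.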

Additional observations from a re-analysis of the deposited data

Results flagged for a closer look

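For 10 genes the EB minus ESC difference in pool 4 differed from that in total RNA by limma's test of the difference, all relative to all genes. It was higher in pool 4 by 1.93 for Psmb8, 1.67 for Dnmt3b, 1.46 for Ap1m2, 1.43 for Pou3f1 and 1.39 for Eml2, and it was -1.68 for 1110038B12Rik, -1.67 for Erdr1, -1.62 for Slc30a1, -1.61 for Hspa5 and -1.59 for Dst. The adjusted p ran from 0.0257 for Hspa5 to 0.0409 for Eml2. The 3 EB cultures did not overlap the 3 ESC cultures in any of the 10, which was a condition of their choice. Of all 13250 genes 3780 did not overlap in this comparison. None of these calls held with a culture left out. Slc30a1 was 1.53 higher in EB total RNA and at -0.09 in pool 4, where another of its probe sets gave 0.21. The signs of Dnmt3b (-0.54 in total RNA, 1.09 in pool 4), Pou3f1 (-0.99 and 0.44), Psmb8 (-0.65 and 1.28) and Hspa5 (0.57 and -1.02) differed between the RNAs. In pool 4 another Pou3f1 probe set gave -0.07, so its change of sign rests on 1 probe set. Other Hspa5 probe sets gave values up to -0.13, and 2 of the 3 Psmb8 values in ESC were at the floor.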

How the results depend on the processing

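Settings that moved the counts are given here; causes were not tested. On the deposited scale (9990 higher, 49 lower) all probe sets gave 19013 higher, median centring 2887 and 5021, hybridisation controls 37 and 14, and mean-signal scaling, chosen after seeing the data, 2565 and 1662. Relative to all genes (1812 and 2035) all probe sets gave 2876 higher, median centring 2887 and 5021, and hybridisation controls 37 and 14. Leaving out an array gave 9209 to 10115 higher and 30 to 80 lower on the deposited scale, 1225 to 1665 and 1382 to 1760 relative to all genes, and a mean-signal ratio of 2.20 to 2.56. Against total RNA (74 and 158) the deposited scale gave 15 and 27, 1 model over the 12 arrays 316 and 573, and an offset of 8, the replicate block and each left-out culture 0 and 0. Against pool 3 (735 and 671) the deposited scale, an offset of 8 and the replicate block gave 0 and 0 in limma (185 and 434, 1820 and 1686, and 1756 and 1660 at an unadjusted p of 0.05), and leaving out a culture 0 to 487 and 0 to 343. For total RNA the unadjusted counts were 1233 and 1526 with the offset and 1341 and 1599 with the replicate block.

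Within pool 4 the replicate block left 9932 higher and 48 lower on the deposited scale and 1660 and 1922 relative to all genes. Whether the numbers pair the cultures was not settled. After median centring Msx1 turned to -0.26 and Gata1 to -0.43. Of 129 results for named genes, 33 kept direction and call under every alternative run and 97 did so but for the hybridisation controls, under which 85 lost their call. Of 57 named genes with several probe sets past the filter, 44 agreed in sign over all of them. Low signal limits what can be said of 1377 genes at the floor in all 3 ESC arrays. The split by protein length was not run.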

Other observations

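A pair of gene groups was assembled after their values were seen, so their counts describe these arrays and carry no test. Over all genes 13.7% were higher in EB pool 4 and 15.4% lower. Of 23 tested genes of the germline, 18 were higher in EB pool 4, 1 was lower and 4 were not called, with a median of 0.88 in pool 4 and 0.53 in total RNA. Beside Dazl and Tex19.1 they included the cohesin genes Smc1b (1.49, at the floor in all 3 ESC arrays) and Stag3 (1.39), Slc25a31, a mitochondrial carrier of germ cells (1.45), the Tudor domain gene Tdrd12 (1.36) and the germ cell helicase gene Ddx4 (1.02). Tdrd12 was at 0.08 in total RNA and was called higher in pool 4 than there (1.27, adjusted p = 0.0356 in limma). That call, like all calls against total RNA, was lost with any culture left out. Tcf15 was lower (-0.63).

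Of 35 tested genes of interferon responses and antigen processing, 9 were higher in EB pool 4 and 3 lower. The shares over all genes were 13.7% and 15.4%. The medians were 0.18 in pool 4 and -0.26 in total RNA. By limma 5 were called higher in pool 4 than in total RNA, against 0.558% of all genes. None of these calls against total RNA held with any culture left out. The transcription factor gene Irf1 was higher by 1.76, Parp12 by 1.72 and the GTPase gene Gbp2b by 0.90, the last of these with -0.47 in total RNA. The class I histocompatibility genes H2-K1 (-1.02) and H2-D1 (-0.86) and the membrane protein gene Ifitm3 (-0.54) were lower.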
